A study of Mus musculus with 8 samples.

Results

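Sterol and fatty acid synthesis genes were examined in lower crypts of the mouse jejunum. The set holds 39 genes, taken by gene symbol from the non-control probes of the arrays: the enzymes of cholesterol synthesis, the SREBP system that regulates them with genes of sterol transport, the enzymes that make, lengthen and desaturate fatty acids, and a pair of lipogenic regulators. All 39 genes had a probe, 60 probes in all, and 37 genes were measured, meaning that 4 or more of 8 arrays had a probe well above background. In all, 19528 genes were tested. Cyp51, the lanosterol demethylase, and Scd1, a stearoyl-CoA desaturase, were not well above background on any array and have no value below.

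Each of 8 single-colour microarrays measured RNA from lower crypts, the bottom of the glands of the gut wall, which house stem cells and Paneth cells and were cut out by laser capture. The mice were male and female, 4 to 6 weeks old, and all carried the Lgr5EGFP-IRES-CreERT2/+ allele, a knock-in that reports Lgr5, a gene of crypt base stem cells, and that also expresses an inducible Cre. Of the 8 arrays, 4 are of fasted mice (24 h) and 4 of fed mice, each group labelled as 2 males and 2 females. Etoposide, which poisons topoisomerase II and so breaks DNA, was then injected by tail vein into all mice at 80 mg/kg, moistened food was given, and the gut was taken 3 h later. Both groups thus carry the drug, and no array without it was analysed here. The fasted mice could eat between injection and sampling, so an effect of fasting and one of eating after it cannot be told apart. The labels number replicates 1 to 4 in each group. They do not say how many crypts, sections or animals went into an array. One mouse per array is an assumption, and p-values measure the spread between these arrays.

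The share of probes well above background ran from 53.2% to 65.4% over the arrays. Fasted replicate 3 stood apart: its correlations across genes with the other arrays ran from 0.82 to 0.92, and it was the one array scanned on a later day. Fed replicate 4 is labelled female, but on it the Xist probe was not well above background and the Y-linked Eif2s3y probe was, opposite to the other 3 arrays labelled female. Among the arrays labelled male, fed replicate 1 had neither probe well above background. If the sample of fed replicate 4 was exchanged, its feeding label would be in doubt too, and the values here cannot tell that apart from a wrong sex label. Fed replicate 4 also shared a slide with fasted replicate 4, and these 2 arrays had a correlation of 0.98. Summaries of the members without these arrays are given below. The capture was checked against its markers. Paneth cell genes were well above background on all 8 arrays for all 10 of 15 listed genes that were measured, and so was the stem cell gene Olfm4, whereas no array had the Lgr5 probe well above background.

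Cholesterol is built from acetyl-CoA: the mevalonate arm makes isoprenoid units and joins them to farnesyl diphosphate, and a later arm joins these to squalene, closes the ring to lanosterol and trims it to cholesterol. The transcription factors SREBP-2 (gene Srebf2) and SREBP-1 (Srebf1) are held in the endoplasmic reticulum by SCAP and INSIG proteins when sterols are plentiful, and are released to act in the nucleus when sterols run low. SREBP-2 mainly drives the sterol enzymes and SREBP-1c mainly the fatty acid enzymes, which insulin also induces. Insig1 is itself an SREBP target. The small intestine both makes sterol and takes it up from the diet, and with the liver it is a major site of cholesterol synthesis in the body.

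Promoter sequences of 5 members are shown because SREBP proteins bind short elements near gene starts, commonly beside a box bound by NF-Y. These 5 were chosen after their values were seen: Hmgcs1 as the one sterol enzyme with a match to both motifs searched, Lss, Mvd and Insig1 as members with large differences, and Acat2 as an enzyme of the mevalonate arm with a difference near 0. The sequences are the 250 bases before the annotated gene start, from RefSeq (assembly GRCm38.p6), read 5′ to 3′ in the direction of transcription. They lie at chr13:119690101-119690350 on the plus strand for Hmgcs1, chr10:76531355-76531604 on the plus strand for Lss, chr8:122443423-122443672 on the minus strand for Mvd, chr5:28071162-28071411 on the plus strand for Insig1 and chr17:12960726-12960975 on the minus strand for Acat2. Capitals mark a match, on either strand, to the sterol regulatory element TCACNCCAC or to the NF-Y box CCAAT, which reads ATTGG where it lies on the other strand.
Hmgcs1: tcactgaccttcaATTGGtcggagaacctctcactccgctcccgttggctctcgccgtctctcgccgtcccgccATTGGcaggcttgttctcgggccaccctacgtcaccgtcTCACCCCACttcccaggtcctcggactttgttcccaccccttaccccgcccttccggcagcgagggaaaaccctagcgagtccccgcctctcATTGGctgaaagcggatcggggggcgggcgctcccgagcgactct
Lss: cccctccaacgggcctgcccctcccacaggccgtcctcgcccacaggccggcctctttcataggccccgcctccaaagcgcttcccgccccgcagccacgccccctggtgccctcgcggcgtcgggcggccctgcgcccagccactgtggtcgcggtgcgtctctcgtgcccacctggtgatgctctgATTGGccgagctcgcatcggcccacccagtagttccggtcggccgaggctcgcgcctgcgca
Mvd: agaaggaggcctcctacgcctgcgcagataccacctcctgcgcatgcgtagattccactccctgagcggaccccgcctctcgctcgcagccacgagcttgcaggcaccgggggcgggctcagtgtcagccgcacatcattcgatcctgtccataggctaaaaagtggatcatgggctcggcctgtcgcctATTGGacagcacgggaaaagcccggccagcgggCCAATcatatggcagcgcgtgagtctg
Insig1: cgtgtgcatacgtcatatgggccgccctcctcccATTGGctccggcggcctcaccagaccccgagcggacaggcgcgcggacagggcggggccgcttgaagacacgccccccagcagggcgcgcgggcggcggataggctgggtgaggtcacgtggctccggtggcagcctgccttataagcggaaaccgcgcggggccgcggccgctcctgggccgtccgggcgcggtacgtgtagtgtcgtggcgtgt
Acat2: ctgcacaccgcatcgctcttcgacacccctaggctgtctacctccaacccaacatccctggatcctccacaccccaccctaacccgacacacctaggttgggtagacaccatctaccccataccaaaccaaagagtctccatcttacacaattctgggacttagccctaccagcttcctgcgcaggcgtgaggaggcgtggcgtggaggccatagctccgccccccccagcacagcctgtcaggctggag

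The Hmgcs1 window held TCACCCCAC starting 137 bases before the gene start and NF-Y boxes starting 237, 176 and 45 bases before it, with no overlap between the motifs. In Lss the single match was an NF-Y box starting 62 bases before the start, in Mvd a pair of them lay 60 and 27 bases before it, and in Insig1 one lay 216 bases before it. The Acat2 window had no match to these letters. Of the 39 members, 32 had a window and together they had 42, since some genes have several starts. The sterol regulatory element was found in 2 of the 42 windows, in Hmgcs1 and, as TCACACCAC, in Mlxipl, against 346 of 32851 windows of the same length over all genes (1.05%). The NF-Y box was found in 27 of the 42 member windows (64.3%), against 11120 of all windows (33.8%). NF-Y boxes were also found for members with negative differences, such as Ebp (-0.11), Insig2 (-0.17), Tm7sf2 (-0.41) and Thrsp (-0.31). Acaca (0.44) and Elovl6 (0.56) had no NF-Y box. The 5 sequences shown thus do not represent the members, and whether matches go with differences was not tested. A match is a description of letters and not a bound site.

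The comparison asked how these genes differed between crypts of fasted and fed mice 3 h after etoposide. Most members, cholesterol enzymes among them, had higher mean signal in fasted crypts, but no gene on the array passed the test across all genes. Of the 37 measured members, 30 had a positive fitted difference and 7 a negative one, with a median of 0.60 and a range from -0.52 to 2.39 on the log2 scale; over all genes 44.5% had a positive difference and the median was -0.06. At a Benjamini-Hochberg adjusted p under 0.05 in limma, 0 of 19528 genes passed (0% of genes tested; the smallest adjusted p was 0.788), while 1161 had an unadjusted p under 0.05. Among the members 16 had an unadjusted p under 0.05 and all of these were higher in fasted crypts, against 3.93% of all genes on that side and 2.02% on the other. In 10 members every fasted array lay above every fed array (2.97% of all genes), and in 0 members every fasted array lay below (2.10%). In bulk tissue, fewer cells of a type and less RNA per cell cannot be told apart. No member is called here, and the differences below are measured values whose adjusted p in limma was 0.788 or more.

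**Figure D1:**
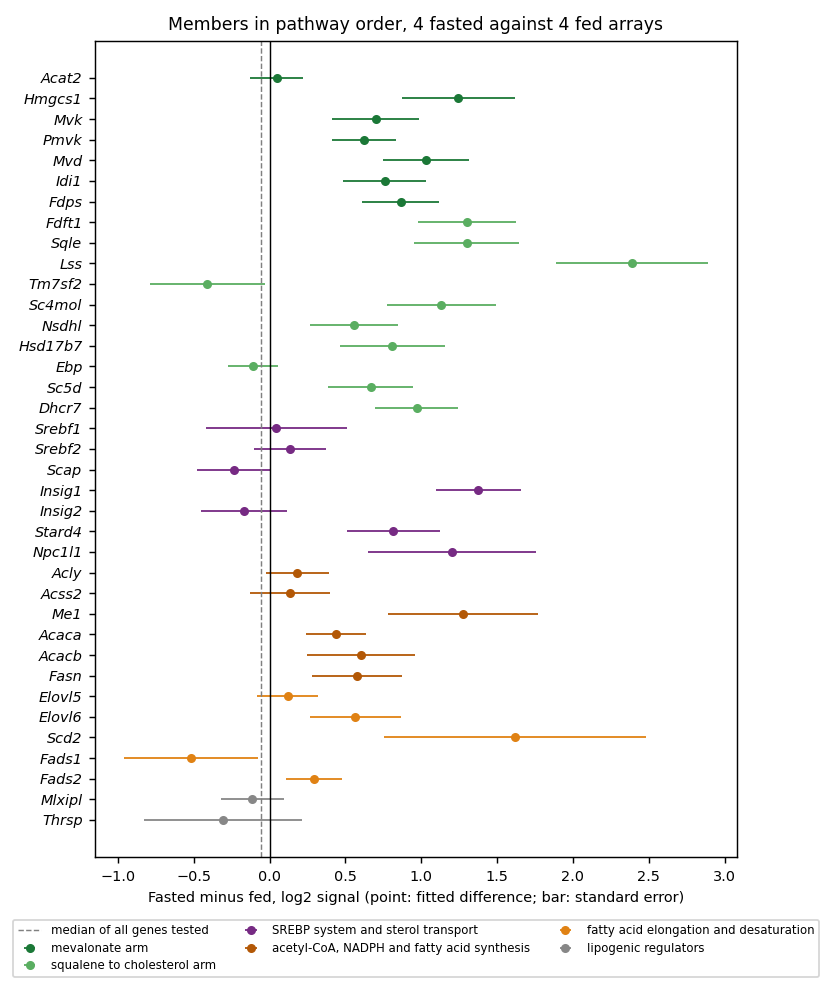
Fitted difference of each of the 37 measured members in pathway order, fasted minus fed, as log2 signal on the horizontal axis; points are the limma estimates from 4 arrays a group, bars their standard errors, colours the role groups, and the dashed line the median of all genes tested (-0.06). All 7 genes of the mevalonate arm lie above 0, Lss lies farthest to the right at 2.39, and Tm7sf2 and Fads1 lie farthest to the left at -0.41 and -0.52.

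In the mevalonate arm all 7 genes were measured and all 7 had a positive difference, with a median of 0.76. Of these, 6 had an unadjusted p under 0.05 in limma (3.93% of all genes, higher in fasted crypts). In 3 the groups did not overlap (2.97% of all genes, fasted above fed). Values are log2 signal relative to the 75th percentile of each array, so a value of 0 is the level of that percentile, and a level is compared between arrays for one probe and never between genes. Hmgcs1, the synthase that commits acetyl units to the pathway, was 3.84, 3.98, 4.25 and 3.53 on fasted arrays 1 to 4 and 2.89, 2.76, 1.58 and 3.40 on fed arrays 1 to 4 (probe at chr13_random:114793-114852, mm9). The lowest fasted array stood just above fed replicate 4, the highest fed array, and fed replicate 3 was the lowest of all. The difference was 1.25 (SE 0.37), 2.37-fold, with an unadjusted p of 0.01 in limma. A dimmer Hmgcs1 probe nearby differed by 3.06 in the same direction, though only 2 fed arrays had it well above background.

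Mvd, the decarboxylase that makes isopentenyl diphosphate, was 1.29, 1.88, 1.45 and 1.82 on the fasted arrays and 0.58, 0.47, 0.08 and 1.18 on the fed arrays (chr8:124957750-124957809, mm9). Again no fed array reached the lowest fasted one, and fed replicate 4 came nearest. The difference was 1.03 (SE 0.28), 2.04-fold, with an unadjusted p of 0.00609 in limma. Fdps, farnesyl diphosphate synthase, was 2.54, 2.77, 3.10 and 2.46 in fasted crypts and 1.21, 2.12, 1.95 and 2.13 in fed crypts (chr3:88897549-88897608, mm9), a difference of 0.86 (SE 0.26) or 1.82-fold. For Fdps the groups did not overlap either, and fed replicate 1 was the low array.

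The other members of this arm overlapped between groups. Pmvk, phosphomevalonate kinase, was 3.68, 4.17, 3.93 and 3.93 against 3.28, 3.24, 2.97 and 3.74, a difference of 0.62 (SE 0.21), and the overlap came from fed replicate 4 alone. Idi1, the isopentenyl diphosphate isomerase, was 0.84, 1.19, 1.43 and 1.13 against 0.13, 0.37, -0.03 and 1.09, a difference of 0.76 (SE 0.28), again with fed replicate 4 inside the fasted range. Mvk, mevalonate kinase, differed by 0.70 (SE 0.28). Acat2, the thiolase at the start of the arm, was the exception: its difference was 0.05 (SE 0.18), with means of 4.48 ± 0.26 (SD, n = 4) and 4.43 ± 0.13 (SD, n = 4).

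In the arm from squalene to cholesterol 10 of 11 genes were measured, 8 had a positive difference and the median was 0.89. Of these, 7 had an unadjusted p under 0.05 in limma (3.93% of all genes, higher in fasted crypts) and 4 had groups without overlap (2.97%). Fdft1, squalene synthase, was 3.22, 3.49, 3.52 and 3.49 on the fasted arrays and 1.36, 2.27, 1.81 and 3.08 on the fed arrays (chr14:63765750-63769990, mm9, an interval far longer than the probe itself). The fasted arrays lay close together (SD 0.14, n = 4) and the fed arrays were spread (SD 0.73, n = 4). The difference was 1.30 (SE 0.32), 2.46-fold, with an unadjusted p of 0.00357 in limma. A dimmer Fdft1 probe, well above background on all 8 arrays, differed by -0.17, so the probes of this gene disagree.

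Sqle, the squalene epoxidase, was 2.47, 2.86, 3.07 and 2.51 in fasted crypts and 1.11, 1.32, 0.84 and 2.44 in fed crypts (chr15:59162688-59162747, mm9). Only fed replicate 4 came close to the fasted arrays. The difference was 1.30 (SE 0.35), 2.46-fold, with an unadjusted p of 0.00527 in limma. Lss, lanosterol synthase, was -1.27, -0.65, -0.78 and -1.54 on the fasted arrays and -4.67, -3.62, -3.29 and -2.21 on the fed arrays (chr10:76015992-76016051, mm9), so every fed array lay below every fasted one. Its difference was 2.39 (SE 0.50), 5.24-fold, with an unadjusted p of 0.00126 in limma; it was well above background on 4 fasted arrays but on only 2 fed arrays, so the fed mean rests partly on dim signal. With normexp background correction its difference was 1.13, under the 1.30 of Fdft1, and in the authors' deposited matrix it was 2.98.

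Dhcr7, the reductase of the last step to cholesterol, was -0.65, -0.32, -0.68 and -0.93 in fasted crypts and -1.49, -1.62, -2.09 and -1.25 in fed crypts (chr7:151033874-151033933, mm9), without overlap. The difference was 0.97 (SE 0.27), 1.96-fold, with an unadjusted p of 0.00732 in limma. Sc4mol, the sterol methyl oxidase now named Msmo1, was 2.20, 2.44, 3.14 and 2.34 against 1.07, 1.47, 0.72 and 2.34, a difference of 1.13 (SE 0.36). Its groups touched only through fed replicate 4. Hsd17b7 (0.81, SE 0.34), Sc5d (0.67, SE 0.28) and Nsdhl (0.56, SE 0.29), which remove or reshape groups on the sterol ring, had positive differences with overlapping groups; Hsd17b7 was at 0.51 without fed replicate 3. Ebp, the sterol isomerase, differed by -0.11 (SE 0.17), and Tm7sf2, a sterol reductase, by -0.41 (SE 0.38), with -0.85 for its second probe and -0.06 without fed replicate 3.

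**Figure D2:**
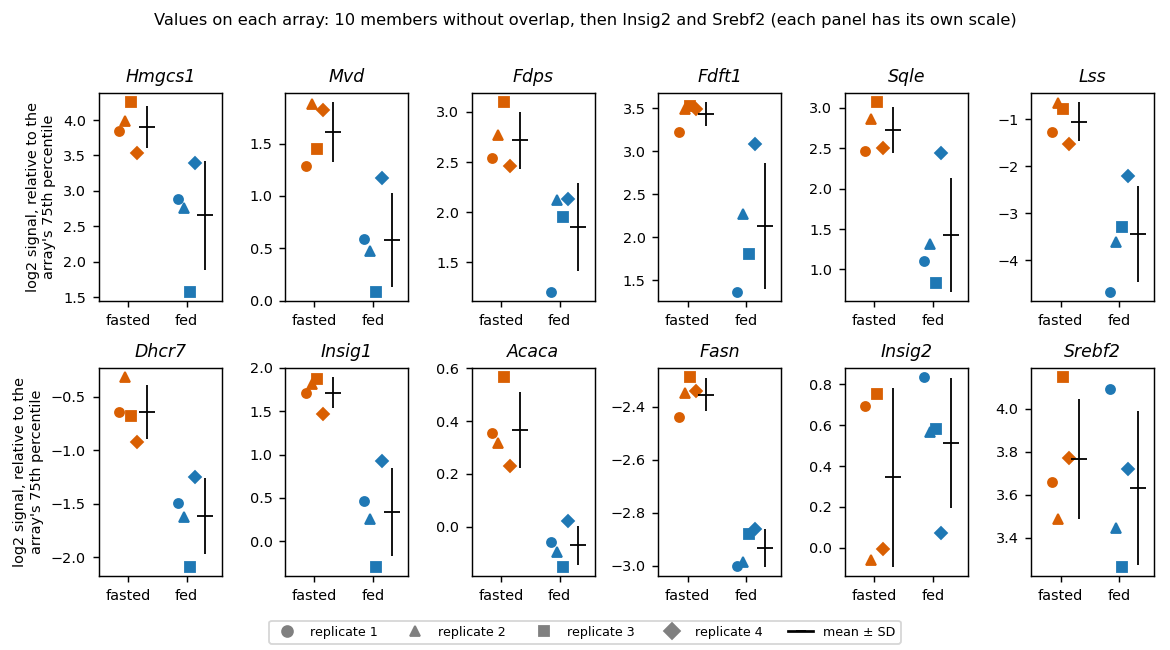
Log2 signal relative to the 75th percentile of each array (vertical axis, a scale per panel) for the 10 members whose groups did not overlap and for Insig2 and Srebf2, on 4 fasted (orange) and 4 fed (blue) arrays; symbols mark replicate numbers and black bars the mean ± SD. In Sqle and Fdft1 the fed diamond, replicate 4, sits nearest the fasted arrays, at 2.44 and 3.08, while Fasn shows a narrow spread in both groups (SD 0.06 and 0.07).

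In the SREBP system Insig1 had groups that did not overlap, and Insig2, Scap, Srebf1 and Srebf2 had differences near 0 with overlapping groups. Insig1, which retains the SCAP and SREBP complex in the endoplasmic reticulum and is itself induced by SREBP, was 1.71, 1.82, 1.87 and 1.47 on the fasted arrays and 0.46, 0.26, -0.29 and 0.92 on the fed arrays (chr5:28404246-28404305, mm9). All fasted arrays stood above all fed arrays, with fed replicate 4 highest and fed replicate 3 lowest among the fed. The difference was 1.38 (SE 0.28), 2.60-fold, with an unadjusted p of 0.00112 in limma. Insig2, the second gene of this family, which is not known as a direct SREBP target, was 0.69, -0.06, 0.75 and -0.01 against 0.84, 0.57, 0.58 and 0.07. Its groups overlapped throughout and the difference was -0.17 (SE 0.29), with -0.16 for a second probe.

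Srebf2 was 3.66, 3.49, 4.15 and 3.77 in fasted crypts and 4.09, 3.45, 3.27 and 3.72 in fed crypts, a difference of 0.14 (SE 0.24). Srebf1 was -1.15, -1.37, -2.27 and -0.14 against -1.88, -1.56, -1.03 and -0.65, a difference of 0.05 (SE 0.47), and its fasted arrays were the more spread. Scap, the escort protein, was 3.07, 2.63, 3.40 and 2.86 against 3.69, 3.27, 3.03 and 2.90, a difference of -0.24 (SE 0.25). The groups overlapped for all 3 of these genes. SREBP activity is set by cleavage of the protein, which an array does not measure.

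Among the transport genes, Stard4, a cytosolic carrier of cholesterol, was 0.45, 0.19, -0.14 and 0.13 on the fasted arrays and -0.08, -0.76, -1.47 and -0.34 on the fed arrays. Its difference was 0.82 (SE 0.31), 1.76-fold, and fasted replicate 3 overlapped with fed replicate 1. Npc1l1, the cholesterol uptake protein of the enterocyte brush border, differed by 1.20 (SE 0.55), with 3 fasted arrays from 0.33 to 0.76, fasted replicate 3 at -1.56, and the fed arrays from -1.75 to -0.67. Without fasted replicate 3 its difference was 1.84. Over the 7 genes of the SREBP system and sterol transport the median was 0.14, with 5 positive and 2 negative differences; it was 0.56 without fasted replicate 3.

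Paralogous pairs were compared on the same arrays, using the difference between the 2 log2 values on each array. Insig1 minus Insig2 averaged 1.37 in fasted crypts and -0.18 in fed crypts, so the pair differed unequally by 1.55. An exact permutation test (2-sided, every way of dividing the 8 arrays equally) gave p = 0.0286, the smallest it can give, and 0.143 after Benjamini-Hochberg adjustment over the 5 pairs. A single differing pair cannot fall below 0.143 in this test, so the adjusted value could not pass for Insig1 and Insig2 alone. The pairs come from members chosen with earlier results of these data known, so their p-values are no independent support. The other pairs gave smaller contrasts between feeding states: -0.81 for Fads1 minus Fads2 (exact permutation p = 0.2, adjusted 0.333), -0.45 for Elovl5 minus Elovl6 (exact permutation p = 0.171, adjusted 0.333), -0.17 for Acaca minus Acacb (exact permutation p = 0.6, adjusted 0.75) and -0.09 for Srebf1 minus Srebf2 (exact permutation p = 0.914, adjusted 0.914). The pair of Scd1 and Scd2 could not be compared because Scd1 was not measured.

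The 6 genes that supply acetyl-CoA and NADPH and build fatty acids all had a positive difference, with a median of 0.51, beside 0.81 over the 17 measured sterol enzymes. Of the 6 genes, 1 had an unadjusted p under 0.05 in limma (3.93% of all genes, higher in fasted crypts) and 2 had groups that did not overlap (2.97%). Fasn, fatty acid synthase, was -2.44, -2.35, -2.29 and -2.34 on the fasted arrays and -3.002, -2.99, -2.88 and -2.86 on the fed arrays (chr11:120667666-120667725, mm9), a clean gap between groups whose SDs were 0.06 and 0.07 (n = 4 each). The difference was 0.58 (SE 0.30), 1.49-fold, with an unadjusted p of 0.0879 in limma, where the variance of this dim probe is moderated towards that of other probes of its level. Acaca, the acetyl-CoA carboxylase that supplies malonyl-CoA for synthesis, was 0.36, 0.32, 0.57 and 0.23 against -0.06, -0.10, -0.15 and 0.02 (chr11:84215093-84215152, mm9), also without overlap. Its difference was 0.44 (SE 0.20), 1.35-fold, with an unadjusted p of 0.0541 in limma, and all 4 of its probes gave positive differences from 0.44 to 0.77.

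Me1, the malic enzyme that makes NADPH, was 3.35, 1.53, 1.83 and 1.43 in fasted crypts and 2.04, 0.11, 0.52 and 0.38 in fed crypts. Replicate 1 was the high array in both groups, and these 2 arrays share a slide. The difference was 1.27 (SE 0.50), 2.42-fold, with an unadjusted p of 0.0324 in limma, and the other 2 probes gave 1.58 and 0.62. Acacb, the carboxylase at the mitochondrial membrane whose malonyl-CoA limits fatty acid oxidation, differed by 0.60 (SE 0.35) on its brighter probe, 0.31 without fed replicate 2, and by -0.26 on the other. Acly, which splits citrate to acetyl-CoA, differed by 0.18 (SE 0.21), and Acss2, which activates acetate, by 0.14 (SE 0.27).

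Among the elongases and desaturases 5 of 6 genes were measured, 4 were positive and the median was 0.29, with 0 at an unadjusted p under 0.05. Elovl6, which extends palmitate, differed by 0.56 (SE 0.30) and by 0.35 without fed replicate 1, Elovl5, which extends polyunsaturated chains, by 0.12 (SE 0.20) and Fads2, a desaturase of polyunsaturated chains, by 0.29 (SE 0.19). Fads1, the partner desaturase, had a difference of -0.52 (SE 0.44), and its fed value rested on fed replicate 1, which stood at -0.87 while the other fed arrays lay between -2.53 and -2.46. Without that array its difference was -0.19. For Scd2, a stearoyl-CoA desaturase, 3 fasted arrays and 1 fed array were well above background, and it differed by 1.62 (SE 0.86); its signal was near background on the others, so this fold is imprecise, and with normexp background correction the difference was 0.54.

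Both lipogenic regulators had a negative difference (median -0.21) that turned positive without fasted replicate 3 (median 0.17). Mlxipl, which encodes the carbohydrate response factor ChREBP, was 4.44, 4.25, 3.57 and 4.08 in fasted crypts and 4.33, 3.96, 4.16 and 4.34 in fed crypts, with groups that overlapped. It differed by -0.11 (SE 0.21), by 0.05 without fasted replicate 3, by 0.01 with quantile scaling, and by 0.19 on its second probe. Thrsp, a lipogenic gene induced by thyroid hormone and carbohydrate, differed by -0.31 (SE 0.52); its lowest array was fasted replicate 3 at -1.69, without which it differed by 0.29. Of 16 members with several measured probes, 13 had the same sign on all of them and 3 (Fdft1, Acacb and Mlxipl) did not.

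Members were also compared array by array. After each gene was centred on its mean over the 8 arrays, the median deviation of the 17 measured sterol enzymes was 0.25, 0.49, 0.45 and 0.36 on fasted arrays 1 to 4 and -0.51, -0.50, -0.80 and 0.12 on fed arrays 1 to 4. Fed replicate 4 thus stood apart from the other fed arrays and below every fasted array: it was the highest fed array for 14 of 17 sterol enzymes, against 27.9% of all genes. Fed replicate 3 was the lowest fed array for 10 of 17, against 16.4% of all genes. For the 11 fatty acid enzymes the medians were 0.21, 0.30, -0.09 and 0.08 in fasted crypts and -0.20, -0.24, -0.23 and -0.08 in fed crypts, so fasted replicate 3 and fed replicate 4 met.

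**Figure D3:**
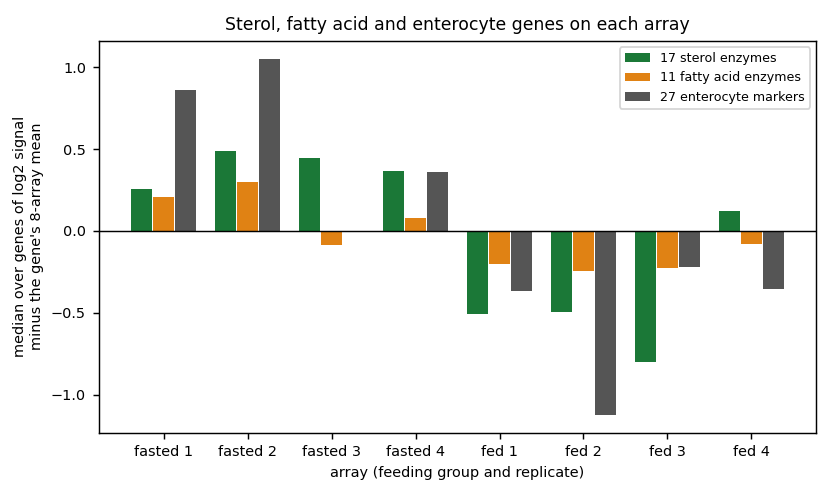
Median deviation from the 8-array mean (vertical axis, log2 signal) on each of the 8 arrays for 17 sterol enzymes (green), 11 fatty acid enzymes (orange) and 27 enterocyte markers (grey). Sterol enzymes are above 0 on all 4 fasted arrays, from 0.25 to 0.49, and below 0 on 3 of 4 fed arrays, whereas the enterocyte bar of fasted replicate 3 is at 0.00.

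Without fed replicate 4 the median of the members was 0.79, 17 members had groups that did not overlap (4.39% of all genes) and 17 had an unadjusted p under 0.05 and a positive difference (3.16%). Without fasted replicate 3 the median was 0.63, and these counts were 16 (4.38%) and 20 (4.69%). Leaving out both arrays gave 0.79, 23 (6.63%) and 19 (4.47%). The median stayed positive in each case. Leaving out arrays can only add genes whose groups do not overlap, as it did over all genes.

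By role, the medians without fed replicate 4, without fasted replicate 3 and without both were 0.97, 0.76 and 0.90 for the mevalonate arm, and 1.14, 0.94 and 1.14 from squalene to cholesterol. They were 0.20, 0.56 and 0.60 for the SREBP system and sterol transport, and 0.53, 0.47 and 0.50 for fatty acid synthesis. For elongation and desaturation they were 0.34, 0.39 and 0.42, and for the lipogenic regulators -0.09, 0.17 and 0.21. All groups but the regulators kept a positive median in these fits. Without fed replicate 3 the median was 0.51, with 10 members separated (3.75%) and 9 at an unadjusted p under 0.05 (2.68%), so that count, 16 with all arrays, rests partly on this array. For 17 of 37 members leaving out some single array moved the difference by over 1.5 times; most of these lay near 0, and the 5 larger than 0.5 in size were Acacb, Elovl6, Fads1, Hsd17b7 and Npc1l1. In each of these fits 0 genes passed the adjusted threshold in limma.

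A shared slide held a fasted and a fed array in 3 cases, which allows a comparison within a slide. These pairs were not all matched for sex: fasted 2 is labelled male and fed 3 female, and the sex of fed 4 is in doubt. Feeding and sex cannot be told apart in such a pair. Fasted 1 minus fed 1 gave a median of 0.70 over the members, fasted 2 minus fed 3 gave 0.82 and fasted 4 minus fed 4 gave 0.13, with 30, 30 and 26 of 37 members higher in the fasted array; the medians over all genes were -0.07, -0.04 and 0.00. For the sterol enzymes the medians were 0.85, 1.40 and 0.14, with 14 of 17 higher on each slide. For the fatty acid enzymes they were 0.63, 0.53 and 0.13, with 10, 11 and 6 of 11 higher; on the last slide the elongases and desaturases had 2 of 5 higher (median -0.01). The pair that holds fed replicate 4 thus had the same direction at a smaller size. On all 3 slides 22 of 37 members were higher in the fasted array (17.9% of all genes). On all 3 slides 4 members were lower, for which the share over all genes was not computed. Insig1 differed by 1.24, 2.11 and 0.55 on these slides, Sqle by 1.36, 2.02 and 0.07, and Fasn by 0.56, 0.53 and 0.52.

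**Figure D4:**
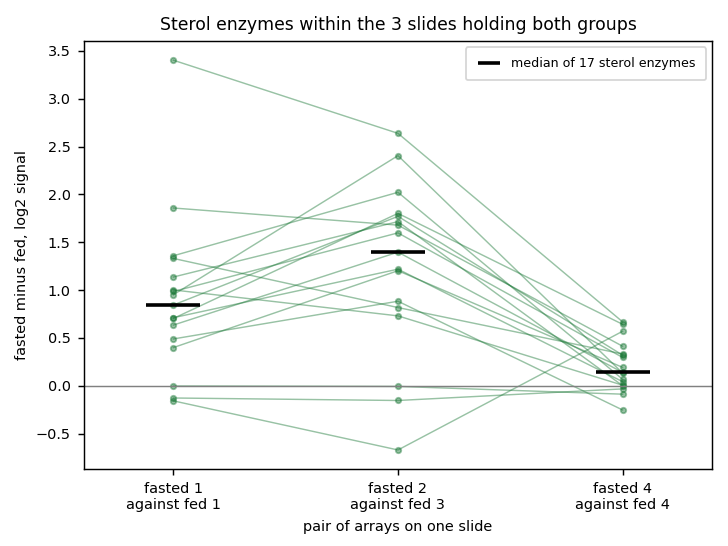
Fasted minus fed log2 signal (vertical axis) for each of 17 sterol enzymes, joined by a green line, within the 3 slides that held an array of each group; black bars mark the medians. The medians are 0.85, 1.40 and 0.14, and the pair of fasted 4 and fed 4 lies nearest 0.

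Markers of enterocytes, the absorptive cells that lie mainly above the lower crypt, were also higher in fasted crypts. Of 28 listed, 27 were measured, 26 had a positive difference (44.5% of all genes) and the median was 0.98. In 12 of them every fasted array lay above every fed array (2.97% of all genes). The summed signal of these markers, on the log2 scale, ran from 7.46 to 8.16 on the fasted and from 6.72 to 7.26 on the fed arrays. Slc7a9, an amino acid transporter subunit, differed by 1.17 (SE 0.24), Enpep, a brush border peptidase, by 1.92 (SE 0.44) and Mep1b, a meprin subunit, by 1.73 (SE 0.41). Fasted replicate 3 was the lowest fasted array for 19 of 27 enterocyte markers (37.6% of all genes) with a median deviation of 0.00, while the sterol enzymes stood at 0.45 on it. It was the highest fasted array for 8 of 17 sterol enzymes, or 47.1%, near the 36.4% of all genes. Fed replicate 4 stood at -0.35 for the enterocyte markers, within the fed range of -1.12 to -0.22, and at 0.12 for the sterol enzymes, above the other fed arrays. The part of enterocyte content in the differences of the members was not tested.

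The other cell type lists were as follows. All 10 measured Paneth cell markers had a negative difference (median -0.43; summed signals of 8.83 to 9.22 on the fasted against 9.25 to 9.70 on the fed arrays); Pla2g2a differed by -0.80, Itln1 by -0.35 and Defa3 by -0.49. Of 11 measured stem cell markers 6 were higher (median 0.07; sums of 4.14 to 5.02 against 4.37 to 5.64), with Olfm4 at -1.11, Cdca7 at 0.63 and Ascl2 at 0.60. Goblet cell markers had 1 of 7 higher (median -0.18; 8.11 to 8.33 against 8.22 to 8.47), with Zg16 at 1.096, Spink4 at -0.36 and Agr2 at -0.30. Adipocytes also express many members. Their markers had 5 of 6 measured higher (median 0.32), with Plin4 at 1.11, Lipe at 1.05 and Retn at -1.70 (fitted without the 3 arrays on which its spot was an outlier). Their sums ran from 1.90 to 2.66 against 1.51 to 3.56. These sums leave out Retn on those 3 arrays, so they do not cover the same genes on every array and cannot be compared. Of the listed genes Cidec, Fabp4, Plin4 and Lipe were well above background on all 8 arrays, Pparg on 7, Retn on 6, Plin1, Cfd and Aqp7 on 3, Adipoq on 2 and Lep on 0. Markers of fibroblasts and smooth muscle had 3 of 9 higher (median -0.09, sums of 5.20 to 6.30 against 4.80 to 6.89), with Myh11 at 0.68 and Col1a2 at -0.72. For Pdgfra no fed array was well above background, and its mean was at least 1.59-fold higher in fasted crypts. That bound leaves out the spread between arrays: the Pdgfra groups overlapped, and its adjusted p was 0.788 in limma. Endothelial markers had 1 of 6 higher (median -0.20; 1.57 to 2.32 against 1.94 to 2.66), with Tek at -0.66, Kdr at -0.39 and Plvap at -0.23. Leukocyte markers had 1 of 6 higher (median -0.31; 6.87 to 7.79 against 7.65 to 8.06), with Itgam at -0.38, Lyz2 at -0.62 and Csf1r at -0.33. Itgam alone stood at 6.62 to 7.47 on the fasted and 7.28 to 7.88 on the fed arrays. The leukocyte sum thus mostly follows this probe. The part of these cell types in the members' differences was not tested.

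Neighbouring genes of lipid metabolism, such as sterol esterification and efflux, NADPH supply, acyl-CoA synthesis and the side branches of the mevalonate pathway, were read from a separate list. Of 43 listed, 40 were measured, 33 had a positive difference (44.5% of all genes) and the median was 0.30, beside 0.81 for the sterol enzymes. Of the neighbouring genes, 6 had an unadjusted p under 0.05 in limma, all higher in fasted crypts (3.93% of all genes). In 3 the groups did not overlap (2.97%). Nr1h3, the oxysterol receptor LXR alpha, was 2.69, 2.54, 2.35 and 1.85 in fasted crypts and 2.05, 1.67, 1.44 and 1.47 in fed crypts, a difference of 0.70 (SE 0.19) with overlap. Agpat2, an acyltransferase of phosphatidic acid synthesis, was 1.79, 2.10, 2.19 and 1.91 against 0.98, 1.48, 1.34 and 1.42, without overlap, a difference of 0.69 (SE 0.20). Lpcat3, a phospholipid acyltransferase, differed by 0.76 (SE 0.24). Abca1 and Abcg1, which export cholesterol, and Pggt1b were not measured.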

How the data were processed

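Cy5-labelled cDNA of 8 laser-captured lower crypt samples was put on Agilent Mouse v2 4x44K arrays, per the labels' protocols. Linear spot intensities in the deposited files were made by the authors in Agilent Feature Extraction, version 11.5.1.1, with probes placed on mm9, per the file headers. The authors' deposited matrix holds log2 values whose scaling and centring stay unknown; its column medians run from 7.73 to 8.33, its ranks follow the processed signal, and it served as an alternative. Of 44397 spots 43020 were non-control, giving 39429 probes after outlier spots were dropped and spots averaged; 27655 were named through RefSeq accessions (GRCm38.p6). No spot was saturated and 0 of 28 array pairs held identical values.

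The log2 processed signal minus the 75th percentile of each array was tested with limma 3.58.1 in R 4.3.3 (feeding and labelled sex as terms, mean trend, Benjamini-Hochberg over 19528 genes). A probe was kept if 4 or more of 8 arrays had it well above background, and the brightest probe represented its gene. Where a group has no such array, its level in a bound on a fold is, array by array, the probe's own signal or that of the dimmest probe well above background, whichever is higher. The number of arrays limits the precision.

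The members and the lists (roles, neighbouring genes, cell type markers) were chosen with earlier results of these data known, so no list carries a p. Any member may be named; values on every array are given for the 12 members with the smallest p and for Srebf1, Srebf2, Scap, Insig1, Insig2, Mlxipl, Fasn, Acaca and Hmgcs1 (Scd1 was not measured), and a few more members were added after their values were seen. From each other list the 3 genes with the smallest p are named. Summed signals add the linear values of a list, so the brightest probes weigh most in them. Which part of a transcript a probe covers was not analysed here. Replicate numbers were checked as pairs: correlations of deviations between same-numbered arrays were 0.37, -0.47, -0.45 and 0.61. The pairs at 0.37 and 0.61 also shared a slide, so number and slide cannot be told apart in them. The numbers were not taken as pairs in the main fit. Arrays of one slide gave 0.37, 0.54 and 0.61. The fit and the permutation test take no account of slide; fits with slide as a block were alternatives.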

Additional observations from a re-analysis of the deposited data

Results flagged for a closer look

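Values on the 4 arrays of a group were screened for a highest or lowest array whose gap to its nearest neighbour exceeded, as a share of the range of the group, Dixon's critical value for 4 samples. In 80 groups examined 3 were found, and chance gives about 1 in 20. Fdft1 was lowest on fasted replicate 1 at 3.22, against 3.49 to 3.52 on the other fasted arrays, a gap of 0.889 of a narrow range. Fads1 was highest on fed replicate 1 at -0.87 (0.957 of the range). The median deviation of all members was highest on fed replicate 4 at 0.046, against -0.36 to -0.33 on the other fed arrays (0.926 of the range).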

How the results depend on the processing

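Under all 28 alternatives 0 genes passed, with a smallest adjusted p from 0.0626 to 0.998 and 478 to 5562 genes at an unadjusted p under 0.05 in limma. The 5562 came with the detected share of probes as a covariate. The members Insig1 and Lss were among the genes that reached 0.0626. The members' median ran from 0.51 to 0.79, with 28 to 32 members positive under 27 alternatives. Of 37 members 26 kept their direction under all alternatives that measured them. Where a value below moved, the cause was not tested. With normexp Lss was 1.13. Leaving out 1 array at a time gave medians of 0.51 to 0.79 for the members, 0.051 to 0.56 for the SREBP system and sterol transport and 0.37 to 0.53 for fatty acid synthesis, 9 to 20 members at an unadjusted p under 0.05, and 10 to 17 without overlap. Without fasted replicate 3 and fed replicate 4 together, the members' median was 0.79, 23 had no overlap, and the SREBP median was 0.60; array weights gave 0.54 for the last. The median for fatty acid synthesis was 0.41 with normexp and 0.40 with normexp and quantile scaling. The counts at an unadjusted p and without overlap were added as results after seeing the data. For the former, slide as a fixed block gave 18 (members' median 0.58) and as a random block 22 (0.57), with 0 genes passing in both. Over all genes, 2555 and 3075 had an unadjusted p under 0.05 in these limma fits, against 1161 in the main fit. A fit without labelled sex, which is in doubt for fed replicate 4, gave 18 members at an unadjusted p under 0.05. The count over all genes in that fit is not given here, so the 18 are not read as a result about the members.

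No reversed value passed the threshold. Mlxipl was 0.013 with quantile scaling, 0.054 with normexp and quantile scaling, 0.039 as the mean of its probes, 0.19 on its second probe and 0.11 without both arrays. Elovl5 was -0.077 with normexp and -0.088 with quantile scaling added, where Ebp was 0.016. The second probe gave -0.26 for Acacb and -0.17 for Fdft1. With slide as a fixed block Acat2 was -0.031, Srebf2 -0.053 and Thrsp 0.15; as a random block Acat2 was -0.007. With the detected share of probes as a covariate Acss2 was -0.005 and Srebf1 -0.25. Array weights gave -0.10 for Acat2 and 0.067 for Thrsp, and leaving out both arrays -0.12 and 0.31. Acaca minus Acacb was 0.13 with normexp, 0.11 with quantile scaling added and 0.41 over mean probes; Srebf1 minus Srebf2 was 0.037 with normexp and 0.57 without both arrays. Leaving out 1 array gave ranges of -0.25 to 0.051 for Mlxipl, -0.09 to 0.16 for Acat2, -0.16 to 0.005 for Ebp, -0.36 to 0.025 for Insig2, -0.30 to 0.56 for Srebf1, -0.022 to 0.33 for Srebf2, -0.59 to 0.29 for Thrsp, -0.37 to 0.17 for the median of the lipogenic regulators, -0.49 to 0.04 for Acaca minus Acacb (-0.53 without both arrays) and -0.45 to 0.38 for Srebf1 minus Srebf2.

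With replicate number replacing labelled sex as the block, the members' median was 0.60, 30 were positive and 0 genes passed (smallest adjusted p 0.752, where the alternatives ranged from 0.0626 to 0.998), and it changed no call. Dim probes limit Lss and Scd2, which were not well above background on every array. Without the filter on dim probes Cyp51 differed by 0.23 and Scd1 by -0.31.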
